A study of Homo sapiens with 13 samples.

Results

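The G2 and M phase genes described here are 43 genes whose products are made as a cell leaves DNA replication and enters division. They were listed by symbol for their known roles. No measured value enters the rule, but earlier results of these data were known when the list was made. All 43 of 43 were found among 57820 gene identifiers measured in bulk tumours and among 15005 genes measured in single tumour cells. The tumours grew from BM1 cells, a bone-seeking derivative of the human triple-negative breast cancer line MDA-MB-231, after 1000000 cells had been placed in a mammary fat pad of nude mice, which are athymic and lack T cells. The bulk arms were 5 tumours of BM1 cells carrying an empty lentiviral vector (CTRL 801, 803, 804, 813 and 815) and 5 tumours of BM1 cells overexpressing human KMT5C, a histone H4 lysine methyltransferase (KMT5C 807, 809, 816, 820 and 823), all taken 4 weeks after implantation. The single-cell arms were 3 vector-control tumours and 3 tumours of BM1 cells expressing RKIP-S153E, a mutant of the metastasis suppressor RKIP, taken at 3 weeks in 3 replicate experiments with 1 tumour of each arm. The bulk lines were selected after transduction with a lentiviral vector that carries the EF1a promoter (pLV-EF1a-IRES-Hygro), and the RKIP transgene is of rat sequence in the count table; the labels do not say whether a line was a clone or a pool. In the bulk tumours, fewer dividing cells and less RNA of a gene per cell cannot be told apart.

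Genes of the G2 and M phases are switched on together late in the cell cycle. In quiescent cells and in G1 the DREAM complex holds many of them silent through a promoter element called the cell cycle homology region (CHR), and later the MYBL2-MuvB complex and FOXM1 activate them, often beside CCAAT boxes bound by NF-Y. Cyclin B and CDK1 then drive entry into mitosis, the spindle checkpoint delays separation of the chromosomes until all are attached, and the anaphase-promoting complex destroys cyclin B and securin to end it. In breast tumours these genes make up much of the known proliferation signatures.

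The promoters of members that varied most closely with the other members from cell to cell (TOP2A, CENPF and MKI67, described further on) are shown as examples of the elements known from other work to control this group. The sequences are those of RefSeq on GRCh38.p14, 5′ to 3′ on the strand of the gene and upstream of its start, with TTTGAA (the CHR core) and CCAAT in capitals on either strand, so that TTCAAA and ATTGG are capitalised too. The TOP2A stretch (chr17:40417951-40418146, minus strand) stops 54 bases short of the RefSeq start, where an annotated exon begins; CENPF (chr1:214602945-214603194, plus strand) and MKI67 (chr10:128126424-128126673, minus strand) run 250 bases up to the start.
TOP2A: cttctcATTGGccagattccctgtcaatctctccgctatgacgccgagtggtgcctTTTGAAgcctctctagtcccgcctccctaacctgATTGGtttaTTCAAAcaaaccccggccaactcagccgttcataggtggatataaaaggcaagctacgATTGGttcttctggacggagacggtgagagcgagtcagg
CENPF: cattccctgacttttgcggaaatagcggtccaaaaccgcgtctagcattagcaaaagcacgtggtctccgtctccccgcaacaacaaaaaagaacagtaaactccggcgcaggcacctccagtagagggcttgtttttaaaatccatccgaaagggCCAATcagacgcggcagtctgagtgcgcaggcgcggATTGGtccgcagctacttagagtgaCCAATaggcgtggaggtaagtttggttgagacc
MKI67: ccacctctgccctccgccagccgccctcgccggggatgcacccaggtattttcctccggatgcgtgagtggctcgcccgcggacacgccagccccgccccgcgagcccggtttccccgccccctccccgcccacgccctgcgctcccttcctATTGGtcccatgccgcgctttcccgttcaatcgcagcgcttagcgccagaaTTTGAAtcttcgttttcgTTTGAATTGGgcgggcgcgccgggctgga

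The TOP2A stretch held 2 TTTGAA and 3 CCAAT, and that of MKI67 held 2 of each, the last pair of which overlap. CENPF had no TTTGAA in the stretch shown and 1 just after its start, with 3 CCAAT upstream. Of the 43 members, 37 had a promoter in the table, a window of 300 bases from 250 before to 50 after the start; TPX2 was among those without one. TTTGAA occurred in 25 of the 37 (67.6%), against 15.4% of all 27305 promoters of the same length. At least 2 CCAAT occurred in 19 (51.4%), against 11.3% of all promoters, and TTTGAA together with 2 or more CCAAT in 14 (37.8%), against 1.83%. In 45 promoters of other G2 and M genes, TTTGAA occurred in 64.4%, while 1 of 40 promoters of S phase genes (2.50%) held it. At least 2 CCAAT occurred in 27.5% of the S phase promoters. The windows of 5 members (CDC25B, CDC25C, CENPE, KIF2C and TACC3) had neither motif. A match is a run of letters and not a measured binding site.

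The bulk libraries held 37050750 to 49536763 counts, and the single-cell tumours 19516061 to 34568923 counts in 247 to 274 cells each. All 10 listed MDA-MB-231 lineage genes, among them VIM and CD44, were above 1 CPM (counts per 1000000) in the bulk tumours, while the hormone receptors ESR1 and PGR stayed under 1 CPM and ERBB2 was at 72.8 to 85.3 CPM. KMT5C itself stood at 8.86 ± 1.52 CPM (SD, n = 5) in the CTRL and 123 ± 20.2 CPM (SD, n = 5) in the KMT5C tumours, with no overlap. In the single cells the RKIP transgene gave 11.9, 205 and 126 CPM in RKIP 1, 2 and 3 and at most 0.608 CPM in the CTRL tumours. Mouse cells and dead cells were removed from the single-cell suspensions; the sources used here do not give how mouse reads were treated in the bulk tumours. Of 12 leukocyte markers, 3 (TYROBP, C1QA and C1QB) were at 0 in the 10 bulk tumours; the summed leukocyte list, mostly LAPTM5, spanned 127 to 173 CPM in the CTRL and 94.3 to 126 CPM in the KMT5C tumours. The 15 skeletal muscle markers summed to 26.9 to 36.7 CPM in the CTRL and 41.2 to 72.6 CPM in the KMT5C tumours, and 6 of the 12 tested were higher in KMT5C. Lower in KMT5C were LAPTM5, the endothelial marker TIE1 and GATA3, at log2 fold changes of -0.65, -0.63 and -0.44 (edgeR adjusted p = 0.00204, 0.0254 and 0.0461). The fibroblast list summed to 723 to 1239 CPM in the CTRL and 769 to 1371 CPM in the KMT5C tumours, with 0 of 10 tested called. Cells are named by chip position, and 551 positions occur in more than 1 tumour, but 0 cells had identical counts. Single-cell tumours are numbered after the endings of the cell names, and tumours with the same ending were taken as 1 experiment. A p-value here measures the spread between tumours grown from one engineered line per arm.

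KMT5C overexpression was not accompanied by a detected change of any G2 and M phase gene in the bulk tumours. All 43 members passed the filter on low counts, and 0 of 43 had an adjusted p under 0.05 (edgeR quasi-likelihood test with Benjamini-Hochberg adjustment), where 2.96% of the 17947 genes tested were called, 1.06% of them higher and 1.9% lower in KMT5C. DESeq2 also called 0 members. At an unadjusted p under 0.05 there were 0 of 43, against 16.8% of all genes, and the arms did not overlap in 0 of 43, against 5.7% of all genes. Of the fold changes, 32 lay above 0 and 11 below, with a median log2 fold change of 0.062 beside 0.0023 over all genes tested. The 95% interval of the difference lay within 1.5-fold in either direction for 43 of 43 members and within 1.25-fold for 27. The smallest adjusted p was 0.313, for TPX2.

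Per kilobase of exon, the most abundant members were UBE2C at 169 CPM per kb (mean of the 10 tumours), CKS2 at 112, CDC20 at 95.6, TPX2 at 92.3 and PTTG1 at 87.3. At the other end stood HMMR at 2.71 CPM per kb, CDC25C at 5.66, CENPE at 6.80 and CDCA3 at 7.33. Exon length here is that of all annotated exons joined, in GENCODE on GRCh38. The processing notes name hg19 beside hg38, so the annotation used for counting may differ in these lengths and in the overlaps below. The ranking with another annotation was not tested. The exons of NUSAP1 overlap another gene model over 62.2% of their length and those of SMC4 over 25.6%, so counts of these 2 members are uncertain; 13 other members had an overlap of at most 12.5%. Copies of members (PTTG2, PTTG3P, CDC20P1 and 6 CKS1B pseudogenes) were listed at no more than 0.289 CPM in a tumour.

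Cyclins and CDK1 regulators, the engine of mitotic entry, comprised 9 members with log2 fold changes of -0.017 to 0.23. CCNA2 (chromosome 4), cyclin A2, which acts from S phase to early mitosis, had the highest fold change of all members. Levels of CCNA2, in the order used for all genes below, were 87.1, 83.4, 83.0, 55.1 and 84.5 CPM in CTRL 801, 803, 804, 813 and 815 and 97.3, 81.5, 98.5, 106 and 79.1 CPM in KMT5C 807, 809, 816, 820 and 823. CTRL 813 was the lowest of the 10 tumours, KMT5C 820 was the highest, and the arms overlapped. The means were 78.6 ± 13.2 CPM in CTRL and 92.4 ± 11.6 CPM in KMT5C (SD, n = 5 each), a log2 fold change of 0.23 (SE 0.12, edgeR adjusted p = 0.327). CDC25C (chromosome 5), the phosphatase that removes inhibitory phosphates from CDK1, measured 15.5, 21.1, 20.9, 12.8 and 17.1 CPM in the CTRL tumours and 21.2, 19.2, 21.7, 21.5 and 17.9 CPM in the KMT5C tumours. Again CTRL 813 was lowest, and CTRL 803 and 804 reached the KMT5C range, with a log2 fold change of 0.22 (SE 0.12). CCNB1 (chromosome 5), cyclin B1, stood at 192, 222, 224, 155 and 191 CPM in the CTRL tumours and 215, 176, 209, 233 and 192 CPM in the KMT5C tumours, and 0.057 (SE 0.099) was its log2 fold change. The CCNB1 arms overlapped over most of their range. CDK1 (chromosome 10), its kinase partner, gave 156, 166, 164, 127 and 162 CPM in the CTRL tumours and 185, 156, 180.2, 179 and 148 CPM in the KMT5C tumours. CTRL 813 and KMT5C 823 were the lowest CDK1 values of their arms, and the log2 fold change was 0.13 (SE 0.087). The other 5 (CCNB2, CDC25B, CDCA3, CKS1B and CKS2) lay between -0.017 (CKS1B, a CDK-binding subunit) and 0.031 (CCNB2).

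The mitotic kinases PLK1, AURKA and NEK2 control centrosomes and spindle assembly. PLK1 (chromosome 16) stood at 82.1, 97.7, 94.2, 62.9 and 89.2 CPM in the CTRL tumours and 84.4, 73.6, 88.6, 92.6 and 73.9 CPM in the KMT5C tumours. The PLK1 arms overlapped, with a log2 fold change of -0.044 (SE 0.11). For AURKA (chromosome 20), which activates PLK1, the levels were 127, 133, 136, 99.7 and 132 CPM in the CTRL tumours and 126, 118, 124, 146 and 121 CPM in the KMT5C tumours. CTRL 813 was low, KMT5C 820 was the highest, and the AURKA arms overlapped; the log2 fold change was 0.014 (SE 0.088). NEK2, which splits the centrosomes, was at 0.13. The spindle checkpoint members BUB1, BUB1B, BUB3 and TTK had log2 fold changes of 0.062 to 0.12. BUB3 (chromosome 10), which brings BUB1 and BUB1B to kinetochores, measured 434, 444, 439, 365 and 419 CPM in the CTRL tumours and 477, 423, 468, 480.2 and 431 CPM in the KMT5C tumours. KMT5C 807, 816 and 820 exceeded every CTRL tumour in BUB3, while KMT5C 809 and 823 lay inside the CTRL range (log2 fold change 0.12, SE 0.073, edgeR adjusted p = 0.461).

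For the 3 partners of the anaphase-promoting complex, all KMT5C values lay inside the range of the CTRL tumours. UBE2C (chromosome 20), the ubiquitin-conjugating enzyme of that complex, measured 196, 226, 248, 187 and 204 CPM in the CTRL tumours and 218, 213, 219.8, 225 and 235 CPM in the KMT5C tumours. CDC20 (chromosome 1), its activator, gave 183, 237, 239.8, 141 and 196 CPM in the CTRL tumours and 195, 174, 193, 196 and 195 CPM in the KMT5C tumours. The SD of CDC20 was 40.9 CPM in the CTRL and 9.41 CPM in the KMT5C tumours. PTTG1 (chromosome 5), securin, the guard of sister cohesion, stood at 151, 198, 204, 147 and 159 CPM in the CTRL tumours and 179.9, 163, 183, 179 and 193 CPM in the KMT5C tumours. The log2 fold changes of UBE2C, CDC20 and PTTG1 were 0.065, -0.065 and 0.064, with a smallest edgeR adjusted p of 0.735 in the group. Of 16 subunits of the complex itself, 0 passed in edgeR, with 1 at an unadjusted p under 0.05 and a smallest adjusted p of 0.0506, and DESeq2 called 1.

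Centromere and kinetochore members (CENPA, CENPE, CENPF, HJURP, NDC80 and NUF2) split evenly, with 3 log2 fold changes above and 3 below 0. CENPF (chromosome 1), a large coiled-coil kinetochore protein, measured 161, 166, 159, 109 and 165 CPM in the CTRL tumours and 184, 159.6, 187, 182 and 131 CPM in the KMT5C tumours. CTRL 813 and KMT5C 823 were low and the other CTRL values lay within 159 to 166 CPM, with a log2 fold change of 0.15 (SE 0.12). NUF2 (chromosome 1), a subunit of the NDC80 complex that grips microtubules, had 51.7, 59.8, 57.2, 40.6 and 51.2 CPM in the CTRL tumours and 55.0, 44.7, 52.0, 52.9 and 42.4 CPM in the KMT5C tumours and was among the 3 lowest fold changes, at -0.077 (SE 0.10). The NUF2 arms overlapped. In the chromosomal passenger complex, which corrects faulty attachments, AURKB (chromosome 17), its kinase, stood at 78.2, 103, 106, 61.9 and 87.7 CPM in the CTRL tumours and 95.4, 78.9, 89.3, 84.7 and 77.9 CPM in the KMT5C tumours. The level of BIRC5 (chromosome 17), survivin, which anchors that complex, was 48.1, 65.7, 64.6, 40.2 and 51.5 CPM in the CTRL tumours and 55.1, 47.0, 55.3, 54.6 and 54.2 CPM in the KMT5C tumours. For AURKB and BIRC5 alike, CTRL 803 and 804 were the highest and CTRL 813 the lowest of the 10 tumours, so the KMT5C values fell inside the CTRL range. Their log2 fold changes were -0.037 and -0.02, and that of CDCA8, the third member, was 0.079.

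Spindle motors and microtubule proteins held both a high and the lowest fold change of the list. TPX2 (chromosome 20), which nucleates microtubules around chromosomes, measured 313, 344, 338, 249 and 310.2 CPM in the CTRL tumours and 366, 321, 359, 407 and 322 CPM in the KMT5C tumours. KMT5C 807, 816 and 820 lay above all CTRL tumours and KMT5C 809 and 823 among them, with a log2 fold change of 0.19 (SE 0.092, edgeR adjusted p = 0.313). HMMR (chromosome 5), a spindle-pole protein, had the lowest fold change of all members, with 11.0, 11.0, 11.5, 9.03 and 13.3 CPM in the CTRL tumours and 11.5, 9.35, 10.6, 10.4 and 8.999 CPM in the KMT5C tumours. CTRL 815 was its highest tumour and KMT5C 823 its lowest, the arms overlapped, and the log2 fold change was -0.14 (SE 0.11). KIF23 (chromosome 15), a kinesin of the midbody, gave 93.0, 106, 97.9, 66.9 and 101 CPM in the CTRL tumours and 98.4, 82.9, 92.1, 95.5 and 69.0 CPM in the KMT5C tumours. Its log2 fold change was -0.086 (SE 0.12), and the arms overlapped. The other 4 kinesins (KIF11, KIF20A, KIF20B and KIF2C) had log2 fold changes of 0.0023 to 0.15. ANLN and ECT2, which build the contractile ring, were both at 0.17.

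Last come the proteins of chromosome structure and surface. TOP2A (chromosome 17), the topoisomerase that untangles sister DNA, measured 418, 384, 359, 285 and 423 CPM in the CTRL tumours and 461, 370.3, 455, 474 and 311 CPM in the KMT5C tumours. KMT5C 823 and CTRL 813 were the lowest tumours, KMT5C 807, 816 and 820 the highest, and the arms overlapped (log2 fold change 0.15, SE 0.12). MKI67 (chromosome 10), the Ki-67 antigen used by pathologists to count cycling cells, gave 345, 305, 315, 203 and 328 CPM in the CTRL tumours and 321, 292, 374, 386 and 241 CPM in the KMT5C tumours. CTRL 813 stood at 203 CPM, where the other CTRL tumours held 305 to 345 CPM, and KMT5C 823 was the lowest of its arm. The MKI67 fold change was 0.11 in log2 (SE 0.14), and the condensin subunit SMC4 0.13.

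**Figure D1:**
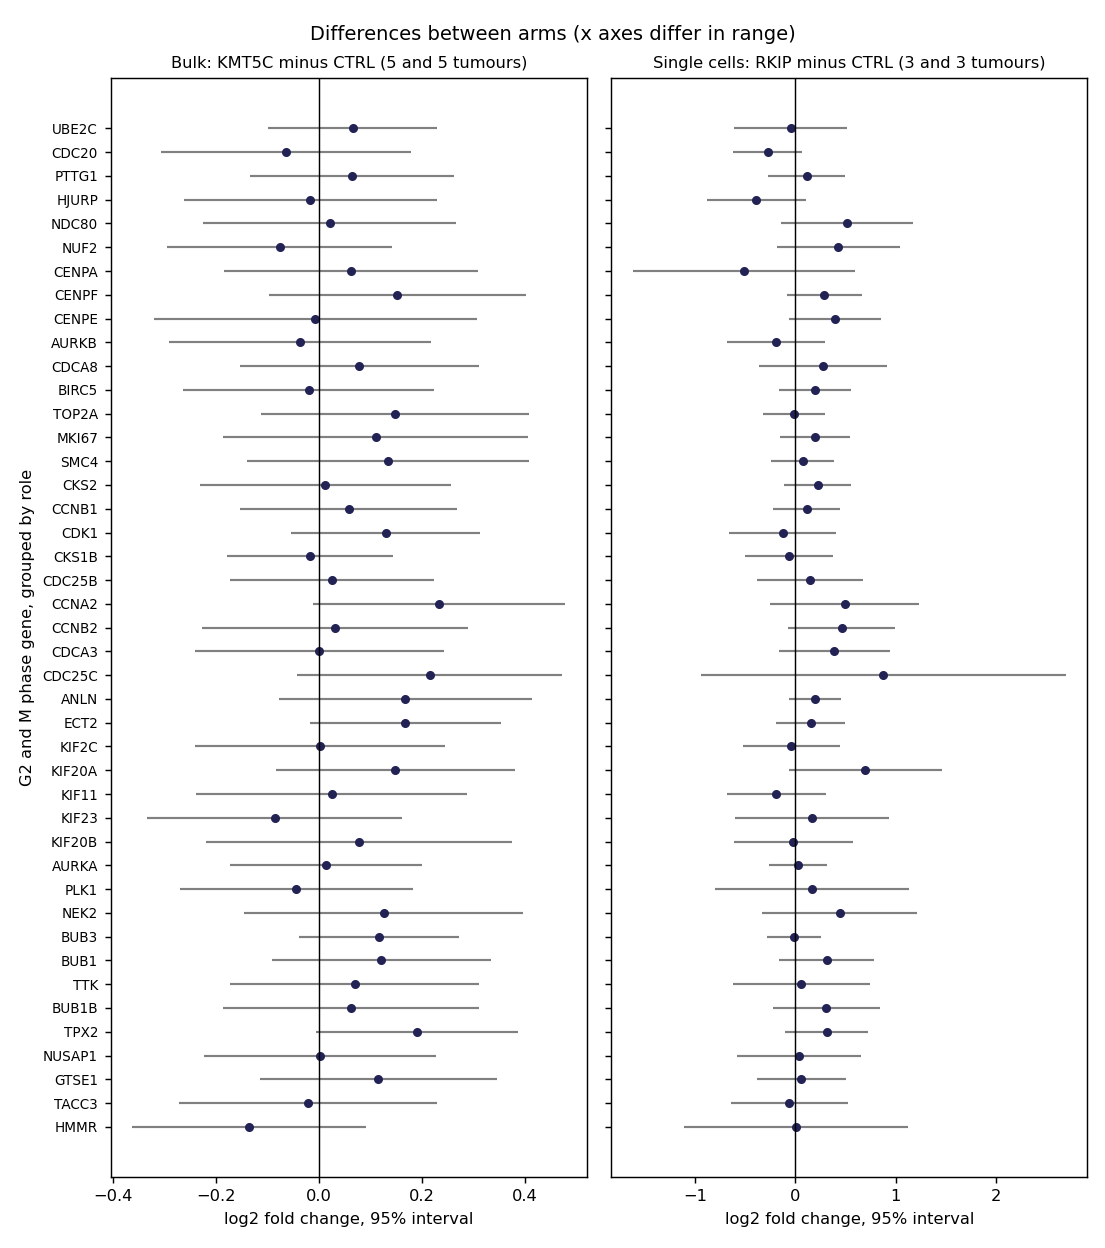
Log2 fold change (points) and its 95% interval (lines) of each of the 43 members, grouped by role, for KMT5C minus CTRL in 5 and 5 bulk tumours (left) and RKIP minus CTRL in 3 and 3 single-cell tumours (right). Every bulk interval includes 0 and lies within 1.5-fold, and the single-cell intervals, on a wider axis, all include 0.

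Single tumours stood further from their own arm than the arms stood from each other, and they did so in nearly all members at once. CTRL 813 was below the mean of its arm in 43 of 43 members, by a median of 0.41 on the log2 scale, from -0.65 (CENPE, a kinetochore motor) to -0.11 (CKS1B). KMT5C 809 was also below its arm mean in 43 of 43, by a smaller median of 0.12. KMT5C 823 was below in 37 of 43, with a median deviation of -0.18; KIF20B was lowest at -0.45 and CKS2 highest at 0.27. In contrast, KMT5C 807, 816 and 820 were above their arm mean in 41, 39 and 38 members, and CTRL 803, 804, 815 and 801 in 41, 37, 33 and 23. Over all genes tested the median deviation of a tumour was between -0.03 and 0.01. A deviation from an arm mean is shared out among 5 tumours, so a low tumour lifts the other 4.

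**Figure D2:**
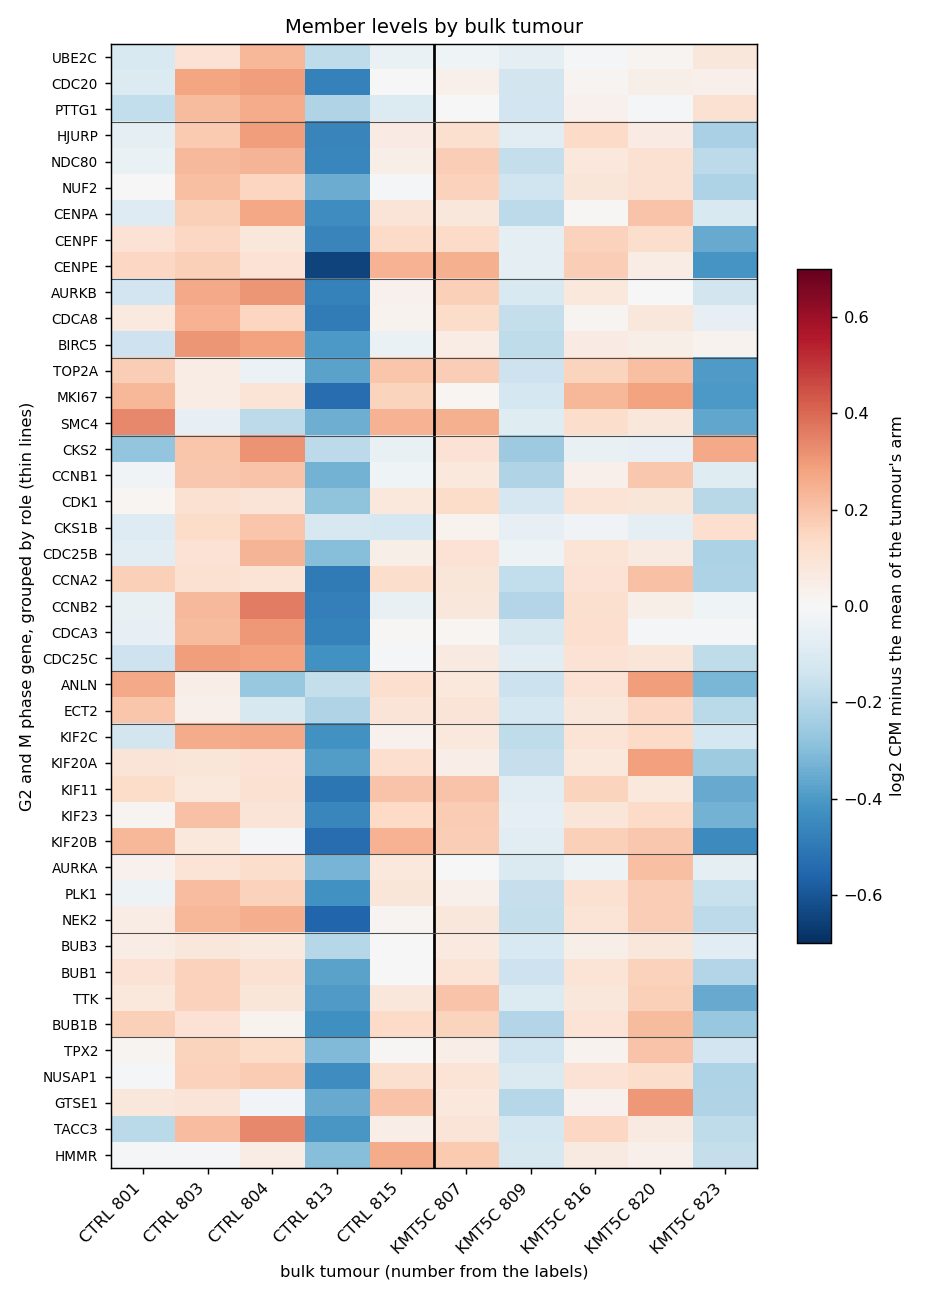
Log2 CPM of each member (rows, grouped by role) in each bulk tumour (columns) minus the mean of the tumour's arm; blue is below and red above. CTRL 813 and KMT5C 809 are blue in all 43 rows and KMT5C 823 in 37.

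Across the 10 tumours, the within-arm deviations of member pairs had a median correlation of 0.82 (903 pairs, from -0.53 to 0.99), and 97.8% were above 0. With CTRL 813 left out of the correlation but kept in the arm means, the median was 0.68 and 90.6% were above 0. Its low values still lift the deviations of the other CTRL tumours there, so 0.68 is not free of CTRL 813. Pairs share the same 10 libraries and their depth, and the 43 members are thus far from 43 separate readings of an arm. The median within-arm SD of the members was 0.22 on the log2 scale, against 0.19 for all genes tested and 0.13 for genes averaging 4 or more on that scale.

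As one number per tumour, the list level (mean log2 CPM over the 43 members) was 6.62, 6.75, 6.74, 6.21 and 6.67 in CTRL 801, 803, 804, 813 and 815 and 6.77, 6.54, 6.75, 6.78 and 6.49 in KMT5C 807, 809, 816, 820 and 823. The 3 lowest tumours were CTRL 813, KMT5C 823 and KMT5C 809, from both arms, and the arms overlapped. The arm means were 6.60 ± 0.22 for CTRL and 6.66 ± 0.14 for KMT5C (SD, n = 5 each), a difference of 0.065 that was smaller than either SD. Without CTRL 813 the median log2 fold change of the members turned from 0.062 to -0.022. When the level of the muscle markers entered the model it was 0.18, and 0 members were called in either case. The list level of the muscle markers was 0.58, 0.80, 0.93, 1.12 and 0.18 in CTRL 801, 803, 804, 813 and 815 and 1.10, 2.00, 1.30, 1.90 and 1.42 in KMT5C 807, 809, 816, 820 and 823, and the arms overlapped only in that CTRL 813 lay just above KMT5C 807. With these markers in the model, the fold changes of HMMR, KIF23, NUF2, PLK1, AURKB, CDC20 and BIRC5, below 0 in the fit without them, lay above 0.

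As lists, other genes of the cell cycle followed the same tumours. The median deviation of 56 other G2 and M genes was -0.36 in CTRL 813, -0.092 in KMT5C 809 and -0.20 in KMT5C 823, and that of 49 S phase genes -0.31, -0.09 and -0.15. FOXM1, an activator of the group, stood at 68.6 CPM in CTRL 813 and 106 to 113 CPM in the other CTRL tumours. MYBL2, its partner in activation, was lowest in the same tumour, at 66.3 CPM against 85.6 to 109.6 CPM. In the KMT5C arm, FOXM1 was lowest in KMT5C 823 and 809, at 94.0 and 98.6 CPM against 109.4 to 113.4 CPM. MYBL2 was lowest in KMT5C 809, at 73.5 CPM. In KMT5C 823 it stood at 80.7 CPM, above its arm mean of 79.2 CPM. Between the arms, 0 of 56 other G2 and M genes, 0 of 18 transcription regulators of the phase and 0 of 49 S phase genes passed the edgeR threshold, with 3, 3 and 2 at an unadjusted p under 0.05. DESeq2 called 1 of the other G2 and M genes and 0 of the regulators and S phase genes.

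The tumours low in G2 and M genes were high in hypoxia genes. The mean log2 CPM over 14 hypoxia genes, among them CA9, VEGFA and NDRG1, was 8.40, 8.48, 8.39, 8.87 and 8.29 in CTRL 801, 803, 804, 813 and 815 and 8.16, 8.63, 8.35, 8.39 and 8.76 in KMT5C 807, 809, 816, 820 and 823. Its 3 highest values were those of CTRL 813, KMT5C 823 and KMT5C 809, the 3 tumours lowest in the G2 and M list. Of the 13 hypoxia genes averaging 4 or more in log2 CPM, 13 were above the arm mean in CTRL 813, 12 in KMT5C 823 and 10 in KMT5C 809, and 0 in CTRL 815 and KMT5C 807. The leukocyte list level was also highest in CTRL 813 and KMT5C 823, at 1.87 and 1.87, against 0.85 to 1.49 in the other 8 tumours, although 109 CPM of LAPTM5 in CTRL 813 was the lowest of its arm. That level is a mean over 6 tested genes, and only 3 of the 12 listed markers averaged at least 1 CPM. LYZ stood at 1.80 and 2.74 CPM in CTRL 813 and KMT5C 823, and AIF1 at 0.616 and 1.30 CPM. PTPRC was at 0.487 CPM in KMT5C 823, within 0.304 to 0.889 CPM over all bulk tumours. No hypoxia gene passed the test between the arms (0 of 14 in edgeR, 0 at an unadjusted p under 0.05, 0 in DESeq2). The part of hypoxia genes or host cells in the levels of the members was not tested.

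**Figure D3:**
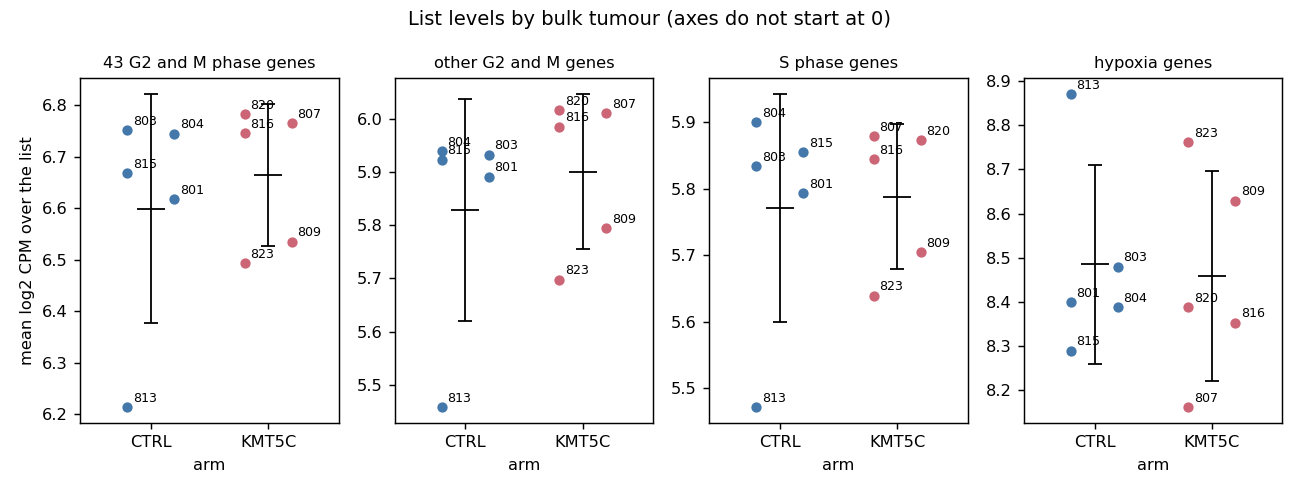
Mean log2 CPM per bulk tumour (points, with the tumour's number) of the 43 members, 56 other G2 and M genes, 49 S phase genes and 14 hypoxia genes, with the mean and SD of each arm (n = 5). CTRL 813, KMT5C 809 and KMT5C 823 are the 3 lowest tumours in the first 3 panels and the 3 highest in the last.

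A further pattern within the list followed gene length. Across the 43 members, the Spearman correlation of exon length with the deviation was 0.62 in CTRL 801 and 0.68 in KMT5C 816, and it was -0.60 in CTRL 804 and -0.72 in KMT5C 823. The same 4 correlations over the 8179 genes that average 4 or more in log2 CPM were 0.52, 0.29, -0.48 and -0.48, and are given as a description of the libraries. SMC4 and ANLN, with long exons, were high in CTRL 801 and low in CTRL 804, and CKS2, the shortest member, was the reverse. Not every long member did so. MKI67, CENPF and CENPE, longer than SMC4 and ANLN, were above the arm mean in both tumours, at 0.097, 0.081 and 0.099 in CTRL 804. In CTRL 813 the correlation was -0.14, and the 21 shorter and 22 longer members were lower by a median of 0.43 and 0.40. In KMT5C 823 the shorter members deviated by a median of -0.11 and the longer ones by -0.26. Genes are not independent replicates, and these correlations describe single libraries.

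In the single cells, summed per tumour, no G2 and M phase gene differed detectably between the RKIP and CTRL arms. Of 43 members tested, 0 passed an adjusted p of 0.05 (edgeR quasi-likelihood test, replicate experiment as a block, Benjamini-Hochberg adjustment), where 0.00688% of 14528 genes, the transgene alone, did. At an unadjusted p under 0.05 there were 0 members, against 4.01% of all genes, and DESeq2 called 0. The arms did not overlap in 6 of 43 members, against 8.9% of all genes. Log2 fold changes were above 0 in 30 and below in 13, with a median of 0.15 beside 0.0029 over all genes. The 95% interval lay within 1.5-fold for 14 members and within 2-fold for 34, so for 9 members a difference beyond 2-fold is inside the interval. With each cell thinned to 20000 counts before summing, so that cells weighed equally, the median was 0.16 and 0 members were called.

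Replicate experiment 1 carried much of the positive median. The list level, a mean log2 CPM of the summed counts, was 6.31, 6.44 and 6.56 in CTRL 1, 2 and 3 and 6.72, 6.49 and 6.54 in RKIP 1, 2 and 3: CTRL 1 was the lowest and RKIP 1 the highest of the 6 tumours. Without experiment 1 the median log2 fold change of the members was 0.018, and without experiment 2 or 3 it was 0.20 or 0.24. Experiment 1 also stood apart in its cells, with a median of 2097 and 2292.5 genes detected per cell at 20000 counts in CTRL 1 and RKIP 1, against 3131 to 3333 in the other 4 tumours. RKIP 1 also had the least RKIP transgene, at 11.9 CPM against 205 and 126 CPM in RKIP 2 and 3. The part of these differences in the members' levels was not tested.

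CDC25C had the highest fold change, with 3.44, 30.7 and 21.5 CPM in CTRL 1, 2 and 3 and 30.1, 18.7 and 29.6 CPM in RKIP 1, 2 and 3. Only CTRL 1 was low, the arms overlapped, and the test gave a log2 fold change of 0.88, SE 0.76. Without experiment 1 it was -0.12, on the other side of 0. KIF20A, the kinesin that carries the passenger complex to the midzone, followed with 7.82, 17.6 and 27.3 CPM in CTRL 1, 2 and 3 and 15.5, 33.6 and 30.8 CPM in RKIP 1, 2 and 3. It was higher in RKIP in all 3 experiments, but the arms overlapped (log2 fold change of 0.70, SE 0.32, edgeR adjusted p = 0.973). One cell held 53.3% of the KIF20A counts of CTRL 1 and 26.8% to 48.7% in the other 5 tumours. NDC80, the main microtubule coupler of the kinetochore, measured 56.9, 64.5 and 75.7 CPM in CTRL 1, 2 and 3 and 137, 76.9 and 77.8 CPM in RKIP 1, 2 and 3. Its arms did not overlap, and RKIP 1 was far above the other 5 tumours, which lay between 56.9 and 77.8 CPM (log2 fold change of 0.51, SE 0.27).

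The lowest fold changes were those of CENPA, HJURP and CDC20. CENPA, the histone H3 variant that marks centromeres, stood at 11.8, 17.1 and 13.3 CPM in CTRL 1, 2 and 3 and 9.99, 6.33 and 14.3 CPM in RKIP 1, 2 and 3. The arms overlapped, the counts were few, and the test gave a log2 fold change of -0.51, SE 0.46. HJURP, the chaperone that deposits CENPA, measured 113, 79.4 and 98.6 CPM in CTRL 1, 2 and 3 and 65.9, 78.4 and 76.6 CPM in RKIP 1, 2 and 3. RKIP was lower in all 3 experiments and the arms did not overlap, although CTRL 2 and RKIP 2 were nearly level (log2 fold change of -0.39, SE 0.20). CDC20 gave 136, 128 and 124 CPM in CTRL 1, 2 and 3 and 105, 111 and 104 CPM in RKIP 1, 2 and 3. It too was lower in RKIP throughout, with no overlap, at a log2 fold change of -0.27, SE 0.14 and an edgeR adjusted p of 0.973. The other members without overlap were CCNB2, BUB1 and NUF2, all higher in RKIP, at log2 fold changes of 0.47, 0.31 and 0.43.

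The mitotic entry genes of the set were not separated between the arms. CCNB1 stood at 281, 276 and 298 CPM in CTRL 1, 2 and 3 and 379.9, 257 and 299.9 CPM in RKIP 1, 2 and 3. RKIP 1 was high and the other 5 tumours lay between 257 and 299.9 CPM (log2 fold change of 0.11, SE 0.14). CDK1 gave 52.8, 67.2 and 61.3 CPM in CTRL 1, 2 and 3 and 55.8, 70.2 and 42.6 CPM in RKIP 1, 2 and 3, and RKIP 3 was the lowest of 6 (log2 fold change of -0.13, SE 0.22). PLK1 was scarce, with 23.6, 7.80 and 24.2 CPM in CTRL 1, 2 and 3 and 16.3, 16.1 and 24.5 CPM in RKIP 1, 2 and 3. A single cell held 63.3% of the PLK1 counts of CTRL 1, and the test gave a log2 fold change of 0.17, SE 0.40. For AURKA the levels were 373, 259.7 and 336 CPM in CTRL 1, 2 and 3 and 344, 305 and 329.7 CPM in RKIP 1, 2 and 3. CTRL 1 was the highest and CTRL 2 the lowest for AURKA, with the 3 RKIP tumours between them (log2 fold change of 0.03, SE 0.12). The checkpoint gene BUB3 had 444, 386 and 398 CPM in CTRL 1, 2 and 3 and 502, 367 and 361 CPM in RKIP 1, 2 and 3, with RKIP 1 the highest (log2 fold change of -0.013, SE 0.11).

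Of the anaphase-promoting complex partners, UBE2C stood at 274, 313 and 371 CPM in CTRL 1, 2 and 3 and 428, 281 and 242 CPM in RKIP 1, 2 and 3. RKIP 1 was the highest and RKIP 3 the lowest of the 6 tumours, so the UBE2C arms overlapped (log2 fold change of -0.044, SE 0.23). PTTG1 measured 519.9, 492 and 679 CPM in CTRL 1, 2 and 3 and 776, 469 and 605 CPM in RKIP 1, 2 and 3. The same tumour, RKIP 1, was highest for PTTG1 (log2 fold change of 0.11, SE 0.16). In the passenger complex, AURKB gave 61.5, 78.3 and 70.9 CPM in CTRL 1, 2 and 3 and 61.6, 54.8 and 67.7 CPM in RKIP 1, 2 and 3, with CTRL 2 highest and RKIP 2 lowest (log2 fold change of -0.19, SE 0.20). BIRC5 had 231, 200.3 and 238 CPM in CTRL 1, 2 and 3 and 328, 231 and 219.9 CPM in RKIP 1, 2 and 3, and RKIP 1 was again highest (log2 fold change of 0.20, SE 0.15).

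CENPF measured 537, 616 and 478 CPM in CTRL 1, 2 and 3 and 871, 580.5 and 572 CPM in RKIP 1, 2 and 3. RKIP 1 stood above the other 5 tumours, as it did for TPX2, which gave 392, 468 and 434 CPM in CTRL 1, 2 and 3 and 671, 437 and 523 CPM in RKIP 1, 2 and 3. The tests gave log2 fold change of 0.29, SE 0.16 for the first and log2 fold change of 0.31, SE 0.17 for the second. TOP2A had 614, 759 and 605 CPM in CTRL 1, 2 and 3 and 715, 800.0 and 480.4 CPM in RKIP 1, 2 and 3. RKIP 2 was the highest and RKIP 3 the lowest tumour for TOP2A, at a log2 fold change of -0.012, SE 0.13. MKI67 was at 752, 882 and 519 CPM in CTRL 1, 2 and 3 and 862, 787 and 767 CPM in RKIP 1, 2 and 3, where CTRL 3 was low and the rest lay within 752 to 882 CPM (log2 fold change of 0.20, SE 0.15). The 24 members not given by tumour here had log2 fold changes of -0.19 (KIF11, the motor that separates spindle poles) to 0.49 (CCNA2).

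FOXM1 was higher in RKIP in all 3 experiments, at 4.93, 8.71 and 13.4 CPM in CTRL 1, 2 and 3 and 64.0, 12.8 and 25.1 CPM in RKIP 1, 2 and 3, but overlapped between the arms and did not pass the test (log2 fold change 1.65, SE 0.67, edgeR adjusted p = 0.973). One cell held 42.7% of its counts in RKIP 1, 60.2% in RKIP 2, 96.5% in CTRL 1 and 24.9% to 26.9% in the other tumours. At 20000 counts a cell, FOXM1 was seen in 0.83%, 6.10% and 7.17% of cells in CTRL 1, 2 and 3. In RKIP 1, 2 and 3 it was seen in 6.92%, 4.30% and 9.54%, so in experiment 2 the share was lower in RKIP. None of 17 transcription regulators of the phase, 56 other G2 and M genes or 49 S phase genes tested passed the edgeR threshold between the single-cell arms, with 3, 0 and 2 at an unadjusted p under 0.05; DESeq2 called 1 S phase gene and 0 of the others.

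Cells were then compared at one depth of 20000 counts each, which left out 87 of the cells. A cell had a median of 9, 16 and 16 members detected in CTRL 1, 2 and 3 and 14, 15.5 and 15 in RKIP 1, 2 and 3. CTRL 1 was lower than the other 5 tumours, and in experiments 2 and 3 the medians of the arms differed by at most 1 member. Without thinning, the medians were 16, 21 and 22.5 in CTRL 1, 2 and 3 and 20, 23 and 23 in RKIP 1, 2 and 3. The share of cells with at least 10 members was 49.8% in CTRL 1 (95% exact binomial interval 43.3% to 56.3%, counting error only) and 72.7% to 85.0% in the others. The 20% of cells with the most member counts held 53.4% to 58.4% of all member counts of a tumour, and the richest cells had 36 to 43 members detected.

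**Figure D4:**
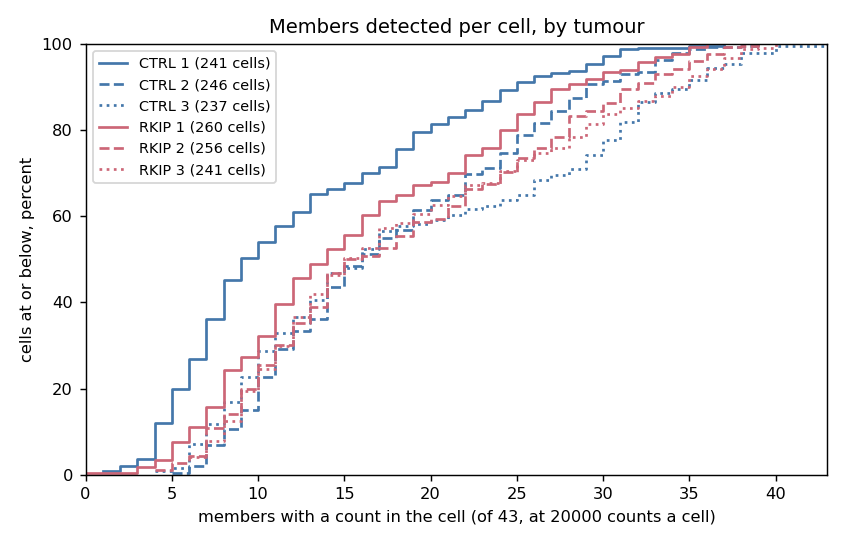
Cumulative percent of cells (y) by the number of the 43 members with a count, at 20000 counts a cell (x), for each of the 6 tumours; line style gives the replicate experiment. CTRL 1, with a median of 9 members, lies to the left of the other 5 tumours, whose medians are 14 to 16.

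Members differed widely in how many cells showed them. BUB3 had a count in a median of 89.1% of cells over the 6 tumours, PTTG1 in 82.4%, CENPF in 79.9%, MKI67 in 78.7%, TOP2A in 74.5% and TPX2 in 70.0%. CCNB1 was seen in 54.9%, CDC20 in 37.0% and CDK1 in 31.6%, and at the low end CENPA in 7.98%, HMMR in 8.33%, NEK2 in 8.84% and PLK1 in 9.98%. Without thinning, the medians for BUB3, TOP2A, CCNB1 and PLK1 were 93.9%, 88.9%, 71.7% and 15.5%. In 39 of 43 members CTRL 1 had the smallest share of cells. Its cells also had the fewest genes detected at 20000 counts, a median of 2097 against 2292.5 to 3333 in the other tumours. The same count over all genes was not taken, so it is not a result about the members. The cells are all of one line, so no cell type that lacks these genes gives a background share.

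From cell to cell the members varied together in every tumour. For the 38 members with a count in at least 5% of the cells of each tumour, the median Spearman correlation over 703 pairs was 0.27, 0.27 and 0.42 in CTRL 1, 2 and 3 and 0.29, 0.36 and 0.36 in RKIP 1, 2 and 3. For all pairs of 7305 genes of the same minimum, the tumour medians were 0.01 to 0.028. Between 99.3% and 100% of member pairs were above 0. RKIP was above CTRL in experiments 1 and 2 and below in experiment 3. Cells of a tumour share a library, and each cell was thinned to 20000 counts before the correlation was taken, while the number of genes detected still differed between cells. Pairs of the same role had a median of 0.30 (71 pairs) and pairs of different roles 0.33 (632 pairs), so pairs within a role were not closer than pairs across roles.

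The closest pair was CENPF with TOP2A, at 0.62 (median of 6 tumours), followed by CENPF with MKI67 at 0.60 and MKI67 with TOP2A at 0.59. Against the mean of the other members, TOP2A reached 0.76 (0.68 to 0.81 over tumours), CENPF 0.72 (0.63 to 0.77 over tumours), TPX2 0.71 (0.63 to 0.80 over tumours) and MKI67 0.70 (0.57 to 0.72 over tumours). CCNB1 followed at 0.64 (0.57 to 0.66 over tumours), PTTG1 at 0.64 (0.55 to 0.73 over tumours) and BIRC5 at 0.63 (0.58 to 0.69 over tumours). The values of UBE2C, CDC20, AURKA, CDK1 and AURKB were 0.63, 0.59, 0.58, 0.55 and 0.53. The loosest members were BUB3 at 0.39, TACC3 at 0.39, CCNA2 at 0.34, CENPA at 0.28 and CDC25B at 0.19. BUB3 and CDC25B were not scarce, with counts in 89.1% and 35.8% of cells, while CENPA was seen in 7.98%. Members left out for low detection were PLK1, KIF20A, HMMR, NEK2 and CDC25C.

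**Figure D5:**
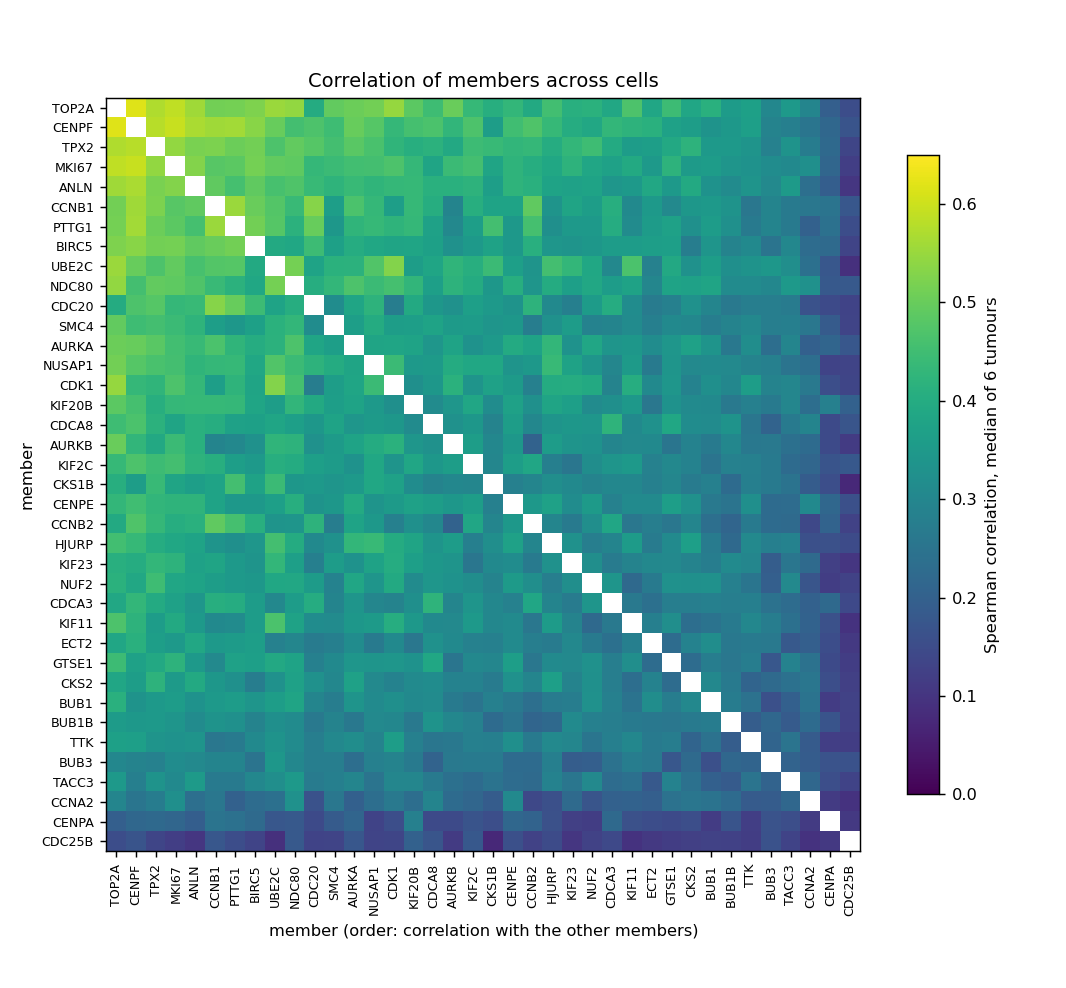
Spearman correlation across cells, as the median of 6 tumours, for each pair of the 38 members with a count in at least 5% of cells of each tumour, ordered by their correlation with the other members. TOP2A, CENPF, TPX2 and MKI67 lead, and the CENPA and CDC25B rows hold the lowest values.

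Members differed in how far they followed S phase genes. Against the mean of the S phase genes across cells, UBE2C had the highest correlation, 0.48 (median of 6 tumours), then TOP2A at 0.43, TPX2 at 0.42 and MKI67 at 0.40. CDK1, which is already made in S phase, had 0.38, near NDC80 at 0.40, HJURP at 0.38, ANLN at 0.37 and CENPF at 0.35. CCNA2, which acts from S phase to early mitosis, had 0.21. It was seen in a median of 18.1% of cells and UBE2C in 65.5%, and the part of detection in these correlations was not tested. CCNB1 and CCNB2, the mitotic cyclins, had 0.18 and 0.12, although they correlated with the other members at 0.64 and 0.50. AURKA, CDC20 and CDCA8 were between these, at 0.26, 0.28 and 0.21. The correlation of CDC25B was 0.012.

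The genes outside the list whose level across cells was most like the mean of the members (Spearman correlation, median of 6 tumours, among 7305 genes) were DLGAP5 at 0.71, CDKN3 at 0.66, STMN1 at 0.64, HMGB2 at 0.63, PBK at 0.62, CEP55 at 0.61, HIST1H4C at 0.59, ASPM at 0.58, KIF4A at 0.55 and HMGB1 at 0.54. Of these 10, 6 were on the separate list of other G2 and M genes. The median over all ranked genes was 0.041. At the negative end stood FTL, the ferritin light chain, at -0.37, IFITM3 at -0.24, and NDRG1, a hypoxia gene, at -0.24; each was below 0 in all 6 tumours. These 3 were singled out after their values were seen.

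As a score per cell (the mean over members), the G2 and M list correlated with the other G2 and M genes at 0.78 to 0.90 over the 6 tumours and with the S phase genes at 0.47 to 0.60. With the hypoxia genes the correlation was -0.30 to -0.10, below 0 in 6 of 6 tumours. A cell's total counts before thinning correlated with the score at 0.064 to 0.16, and the number of genes detected after thinning at 0.30 to 0.52. RNA quality and dissociation stress genes gave -0.13 to 0.10. The part of the number of genes detected in the correlations between members was not tested.

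Variation between cells was compared as the residual of the log2 squared coefficient of variation from its trend on the mean. None of 43 members passed the test between RKIP and CTRL (limma with the replicate block, 0 with adjusted p under 0.05 and 0 with unadjusted p under 0.05, where 0% and 3.8% of 10177 genes were), and the smallest adjusted p of a member was 0.944. The median difference was -0.025 over members and -0.016 over all genes. The median residual over tumours was above 0 in 23 of 43 members, close to the 50.6% of all genes, so the set as a whole lay near the trend. MKI67 and TOP2A, singled out after their values were seen, had high residuals in every tumour, for TOP2A 0.78, 2.17 and 1.02 in CTRL 1, 2 and 3 and 1.19, 2.45 and 1.17 in RKIP 1, 2 and 3. They were not alone in this. AURKA (1.05 to 2.05), CENPF, ANLN, CCNB1 and TPX2 were among other members above the trend in every tumour. CKS1B lay below the trend, at -1.14, -1.02 and -0.88 and 0.59, -0.94 and -0.81, with RKIP 1 as the exception.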

How the data were processed

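Raw counts per gene were deposited by the authors for 10 bulk tumours and for single cells of 6 tumours. Per the submitters' processing notes, Trim Galore, STAR and featureCounts were used, and the builds hg38 and hg19 are named; which build served which table, strand settings and use of molecular identifiers are not given in the sources used here. Bulk libraries held 37050750 to 49536763 counts and single-cell tumours 19516061 to 34568923. Binomial intervals for shares of cells cover counting error only, and intervals of fold changes rest on the spread between tumours. Of 1569 cells, 1 with fewer than 1000 genes was removed. Doublets were not called.

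The 43 members and the comparison lists were chosen with earlier results of these data known. All genes were fitted with edgeR 4.0.16 (R 4.3.3; filterByExpr, TMM, quasi-likelihood test), bulk tumours without a covariate and single cells as counts summed per tumour with the replicate experiment as a block. Adjustment ran over all genes tested, at a threshold of 0.05. The labels describe 1 CTRL and 1 RKIP tumour per replicate experiment; the deviations of tumours with the same ending of the cell names correlated at 0.19, 0.070 and 0.19, and each was closest to its own ending. DESeq2 1.42.0 was an alternative, and variation between cells was tested with limma 3.58.1. Cells were thinned to 20000 counts (seed 1; 87 cells left out) for shares and correlations, with Python 3.11.15, numpy 2.4.6, pandas 2.3.3 and scipy 1.17.1, and drawn with matplotlib 3.10.9. Levels are CPM after TMM, and log2 CPM uses a prior count of 2. The fits were tested on simulated data, in which most changed genes were recovered in the bulk fit and few in the fit of summed single cells.

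Values per tumour are given for 14 set members (TOP2A, MKI67, CCNB1, CDK1, PLK1, AURKA, AURKB, CDC20, BIRC5, CENPF, UBE2C, TPX2, BUB3 and PTTG1) and for the 3 highest and 3 lowest fold changes of each fit. Alternatives were other normalizations, no filter, a muscle covariate, equal weight per cell, no block and each tumour or experiment left out. Symbols for 51996 of the 57820 bulk identifiers came from a reference table of gene names, and single-cell genes are named in the deposited table. Exon lengths and overlaps came from GENCODE on GRCh38, which may not be the annotation used for counting. Promoters came from RefSeq on GRCh38.p14.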

Additional observations from a re-analysis of the deposited data

Results flagged for a closer look

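Within an arm, 88 groups of 5 tumours (43 members and the list level, with each arm taken separately) were examined for a highest or lowest tumour whose gap to the next exceeded 0.71 of the whole range of the arm, and 16 had one. Chance gives about 1 in 20 groups, and the members vary together, so these are not 16 separate events. In 14 of them the tumour was CTRL 813, always as the lowest. Its list level was 6.21, where the other CTRL tumours had 6.62 to 6.75.

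Among cyclins and kinases, CTRL 813 held CCNA2 at 55.1 CPM (others 83 to 87.1), CDK1 at 127 CPM (others 156 to 166), AURKA at 99.7 CPM (others 127 to 136) and NEK2 at 20.2 CPM (others 30.1 to 35.4). For checkpoint genes it held BUB1B at 38.3 CPM (others 52.5 to 57.9), BUB3 at 365 CPM (others 419 to 444) and TTK at 40.5 CPM (others 56.2 to 59.7). At the kinetochore it held CENPE at 40.1 CPM (others 67.4 to 74.5) and CENPF at 109 CPM (others 159 to 166). Among kinesins it held KIF11 at 81.4 CPM (others 122 to 133), KIF23 at 66.9 CPM (others 93 to 106) and KIF20A at 76.1 CPM (others 106 to 108). The proliferation antigen was also low, with MKI67 at 203 CPM (others 305 to 345).

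KMT5C 809 was the lowest of its arm for members such as CCNB1 and UBE2C, with gaps too small for the rule. For 2 members its gap passed the rule. CDC20 stood at 174 CPM there and at 193 to 196 CPM in the other KMT5C tumours. BIRC5 stood at 47 CPM, against 54.2 to 55.3 CPM.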

How the results depend on the processing

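No member was called under any alternative tried, in bulk tumours, in single cells or in the variation between cells. For both single-cell tests this says nothing about stability, since 1 of 14528 and 0 of 10177 genes passed at all. Signs of the small fold changes were less stable: of 285 bulk refits of 19 named members, 265 kept their direction and 20, in 9 members, turned, and of 152 single-cell refits 136 kept it and 16, in 9 members, turned. With muscle markers in the model, the bulk log2 fold changes that turned were PLK1 0.079, AURKB 0.11, CDC20 0.029, BIRC5 0.061, HMMR 0.13, KIF23 0.099, NUF2 0.042. With total counts in place of TMM, that of AURKA was -0.017. Leaving out 1 tumour gave bulk ranges across 0 for CCNB1 -0.0068 to 0.12, PLK1 -0.13 to 0.016, AURKA -0.049 to 0.049, AURKB -0.13 to 0.049, CDC20 -0.16 to 0.016, BIRC5 -0.099 to 0.068. In single cells, cells weighted equally gave TOP2A 0.094, CDK1 0.022, UBE2C 0.062. Leaving out 1 experiment gave TOP2A -0.13 to 0.15, CCNB1 -0.046 to 0.22, CDK1 -0.23 to 0.071, PLK1 -0.25 to 0.53, AURKA -0.069 to 0.10, UBE2C -0.38 to 0.24, BUB3 -0.10 to 0.050, PTTG1 -0.12 to 0.25, CDC25C -0.12 to 1.78. With 1 tumour left out, the median over members ranged from -0.022 to 0.10 in bulk tumours. With 1 experiment left out, it ranged from 0.018 (without experiment 1) to 0.24 in single cells. The bulk median with muscle markers in the model lay above that bulk range. Without the replicate block, 0 members were called, the single-cell median was 0.097 instead of 0.15, and the log2 fold changes that turned were TOP2A 0.012, BUB3 0.0018. The median difference in variation was 0.049 when cells were thinned to 10000 counts. With 1 experiment left out, that median ranged from -0.082 to 0.098 (without experiment 3). The median correlation between members across cells was 0.28 to 0.38 over 4 alternatives and 0.33 as reported. The correlation of member pairs over bulk tumours without CTRL 813 was chosen after seeing the data, and it kept arm means that include CTRL 813. The cause of these changes was not tested. Bulk SEs were 0.073 to 0.15, while single-cell SEs of 0.11 to 0.76 rest on 3 tumours an arm and, for scarce members, on counts of few cells.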
